A study of Rattus norvegicus with 4 samples.

Results

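The lysyl oxidases and lysyl hydroxylases take part in the cross-linking of collagen. In rat lung they were measured as 8 genes of 22050 in the deposited tables, chosen by gene symbol. They comprise the 5 genes of the LOX family (Lox, Loxl1, Loxl2, Loxl3 and Loxl4) and the 3 lysyl hydroxylase genes Plod1, Plod2 and Plod3. Whole-lung mRNA came from 2 rats given bleomycin (5 mg/kg) and 2 rats given normal saline, all SD rats, a Sprague-Dawley outbred stock. Each received a single intratracheal injection of 0.2 mL on day 0, and the lungs were collected on day 28. Bleomycin is an antitumour antibiotic that damages DNA and is used to induce lung fibrosis in rodents. Per the labels each library came from 1 rat; the lungs are numbered by replicate, and the ages of the rats are not stated.

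Lysyl hydroxylases act on new collagen chains inside the endoplasmic reticulum, where they convert selected lysines to hydroxylysine. After secretion, the copper-dependent amine oxidases of the LOX family convert lysines and hydroxylysines of collagen, and lysines of elastin, to reactive aldehydes, which then condense into covalent cross-links. Whether a lysine in the short terminal stretches of collagen was hydroxylated decides which kind of cross-link forms there, and Plod2 encodes the enzyme best known for hydroxylating those stretches.

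Gene counts per library summed to between 34683699 and 44381111, and the members had from 14652 counts (Lox in bleomycin replicate 1) down to 196 counts (Loxl3 in control replicate 1). Lung markers were abundant in every library, with 6823 and 13621 CPM of the surfactant gene Sftpc in bleomycin lungs 1 and 2 and 15438 and 14334 CPM in control lungs 1 and 2. CPM are counts scaled to the library total after TMM (trimmed mean of M values) normalization, and FPKM are the authors' values, scaled to gene length as well. The 8 listed heart muscle markers summed to 120.0 and 70.2 CPM in bleomycin lungs 1 and 2 and to 204.3 and 37.9 CPM in control lungs 1 and 2, most in control lung 1. Levels are compared between genes as FPKM and between libraries as CPM or FPKM. Changes are given as bleomycin over control, log2 changes with their standard error (SE). A gene was called where the quasi-likelihood test of edgeR, adjusted by the Benjamini-Hochberg method over all 15709 tested genes, gave a p below 0.05.

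In bleomycin lungs 4 of the 8 members rose and 0 fell. Plod2 rose 5.98-fold, Loxl1 3.95-fold, Loxl2 2.34-fold and Plod1 1.57-fold, while Lox, Loxl3, Loxl4 and Plod3 did not pass the test. Of all tested genes 9.27% were called higher and 7.44% lower. The members were chosen with earlier results of these data known. The median log2 change was 0.99 over the 8 members and 0.013 over all tested genes. For 7 of the 8 members both bleomycin libraries lay above both controls, a pattern shown by 35.1% of tested genes; the reverse pattern held for 0 members and for 33.4% of tested genes. Each of the 8 members had more CPM in bleomycin replicate 1 than in bleomycin replicate 2. The share of all tested genes with this order was not counted, so it is not read as a trait of the members. With either control left out, the spread was taken from the bleomycin pair alone. The calls of the members, and most calls among all tested genes, were then lost. Without control replicate 1 and without control replicate 2, the log2 change was 2.46 and 2.70 for Plod2 and 2.10 and 1.86 for Loxl1. It was 1.13 and 1.32 for Loxl2 and 0.73 and 0.58 for Plod1.

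**Figure D1:**
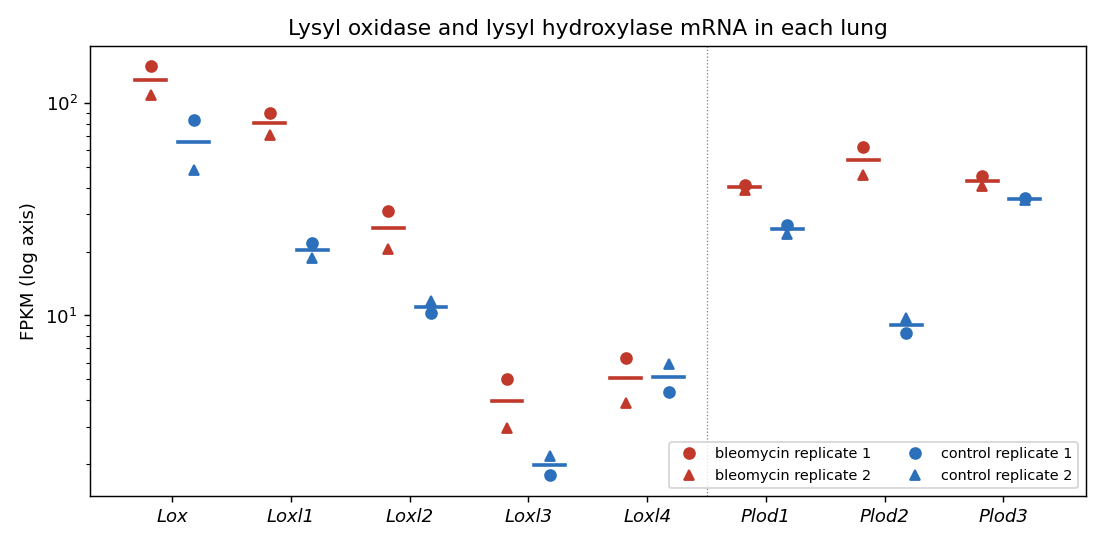
FPKM of the 8 members in each library on a log axis, with bleomycin libraries in red to the left and control libraries in blue to the right of each gene; short lines are means of 2 libraries. Both bleomycin libraries lie above both controls for 7 members, with Loxl4 as the exception.

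Plod2, which encodes the lysyl hydroxylase of the collagen telopeptides, had the largest change of the 8. It stood at 62.2 and 45.9 FPKM in bleomycin lungs 1 and 2, against 8.25 and 9.76 FPKM in control lungs 1 and 2. Both bleomycin libraries were far above both controls, whose values lay close together. The rise was 2.58 ± 0.19 on the log2 scale (SE; edgeR adjusted p = 0.00984, n = 2 libraries a group in a model across all genes), larger than the change of 98.0% of tested genes. Plod1, which encodes the hydroxylase that acts mainly on lysines of the collagen triple helix, had 41.1 and 39.1 FPKM in bleomycin lungs 1 and 2 and 26.8 and 24.1 FPKM in control lungs 1 and 2. Its replicates differed little within either group, and it rose by 0.65 ± 0.11 on the log2 scale (SE; edgeR adjusted p = 0.0239). Plod3, whose product also transfers sugars to hydroxylysine, had 45.2 and 40.9 FPKM in bleomycin lungs 1 and 2, against 35.9 and 35.0 FPKM in control lungs 1 and 2. The groups did not overlap, but the log2 change of 0.28 ± 0.10 (SE) did not pass (edgeR adjusted p = 0.12). It passed without bleomycin replicate 2 (edgeR adjusted p = 0.0456). Without control replicate 1 the edgeR adjusted p was 0.0628 for Plod2 and 0.148 for Plod1, and without control replicate 2 it was 0.0614 and 0.19, with log2 changes of 2.46 and 0.73 in the one case and 2.70 and 0.58 in the other. In the RefSeq table of the GRCr8 assembly, Plod3 overlaps Znhit1. Whether the counting used strand is not stated, and reads shared by the 2 genes were not assessed. Znhit1 had 25.0 and 19.1 CPM in bleomycin lungs 1 and 2 and 18.7 and 18.3 CPM in control lungs 1 and 2.

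Upstream sequences are shown for called members, to set the bases just before their starts beside their rises. RefSeq entries (GRCr8 build) were found for 6 of the 8 members, all but Lox and Loxl2. The first entry listed for each symbol was taken, and any other starts of these genes were not scanned. The 250 bases before the start are printed 5′ to 3′ on the strand of the gene for Plod2 (chr8:101964068-101964317, plus strand), Loxl1 (chr8:67612225-67612474, minus strand) and Plod1 (chr5:163650738-163650987, minus strand). Capitals mark ACGTG, the A-first form of the hypoxia-inducible factor core, and the Smad box CAGAC on either strand. They do not overlap each other in these 3 windows. The G-first form of that core, GCGTG, was not scanned and is not marked.
Plod2: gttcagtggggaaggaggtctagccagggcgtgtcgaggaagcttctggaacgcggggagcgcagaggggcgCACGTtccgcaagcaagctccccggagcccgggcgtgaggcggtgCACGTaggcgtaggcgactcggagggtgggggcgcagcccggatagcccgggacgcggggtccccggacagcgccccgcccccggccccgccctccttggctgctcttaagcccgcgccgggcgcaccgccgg
Loxl1: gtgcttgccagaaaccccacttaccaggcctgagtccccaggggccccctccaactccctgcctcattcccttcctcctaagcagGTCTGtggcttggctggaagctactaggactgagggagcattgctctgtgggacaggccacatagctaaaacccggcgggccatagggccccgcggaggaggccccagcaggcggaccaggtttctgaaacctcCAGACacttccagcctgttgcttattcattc
Plod1: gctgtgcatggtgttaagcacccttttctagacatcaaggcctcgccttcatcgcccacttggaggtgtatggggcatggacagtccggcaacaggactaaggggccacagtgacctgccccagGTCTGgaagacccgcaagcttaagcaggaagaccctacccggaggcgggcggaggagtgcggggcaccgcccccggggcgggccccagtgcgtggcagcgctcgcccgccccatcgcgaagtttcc
The Plod2 window held 2 matches to ACGTG, both on the reverse strand (CACGT as printed), starting 178 and 133 bases before the start, and 0 to CAGAC. The other 5 windows held 0 matches to ACGTG, which occurred in 16.6% of the windows of the same length before all 33469 listed starts. The unscanned form GCGTG can be read in the Plod2, Plod1 and Loxl3 windows, and in reverse in that of Plod3. Hypoxia-inducible factor cores are thus not shown to be particular to Plod2. The Plod2 window was 74.8% G or C, against a median of 51.2% over all windows. CAGAC matched 2 times in the Loxl1 window, 165 and 31 bases before the start, and once each in those of Loxl4, Plod1 and Plod3; it occurred in 42.9% of all windows. These matches describe letters only, and binding was not measured.

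Among the LOX family, Loxl1 and Loxl2 rose. Loxl1, which encodes an oxidase tied to elastic fibres, had 89.9 and 70.9 FPKM in bleomycin lungs 1 and 2, against 22.1 and 18.6 FPKM in control lungs 1 and 2. The lower bleomycin library was well above the higher control, and the rise was 1.98 ± 0.16 on the log2 scale (SE; edgeR adjusted p = 0.0102). Loxl2, whose product cross-links fibrillar and basement membrane collagen, had 31.0 and 20.5 FPKM in bleomycin lungs 1 and 2 and 10.3 and 11.7 FPKM in control lungs 1 and 2. The bleomycin pair was more widely spread than the control pair, and both of its values lay above the controls. Loxl2 rose by 1.23 ± 0.21 on the log2 scale (SE; edgeR adjusted p = 0.027). With control replicate 1 left out, the edgeR adjusted p was 0.0646 for Loxl1 and 0.144 for Loxl2, and with control replicate 2 left out it was 0.07 and 0.116. The log2 changes were then 2.10 and 1.13 in the one case and 1.86 and 1.32 in the other.

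Lox, the founding member of the family and the most abundant of the 8 genes in both groups, had 148.9 and 109.3 FPKM in bleomycin lungs 1 and 2, against 83.1 and 48.4 FPKM in control lungs 1 and 2. The groups did not overlap, but by CPM the controls were 1.73-fold apart, more than those of any other member and more than the bleomycin pair of Lox (1.34-fold). The log2 change of 0.97 ± 0.30 (SE) did not pass (edgeR adjusted p = 0.0839). It was 1.40 without control replicate 1 and 0.63 without control replicate 2 (edgeR adjusted p = 0.108 and 0.275). Control replicate 1, the control with more Lox, also had the highest sum of the heart muscle markers. The heart myosin gene Myh6 had 77.3 CPM there, against 2.50 CPM in control replicate 2. Of the same list, Tnnt2 and Actc1 were highest in bleomycin replicate 1, at 22.5 and 66.2 CPM against 19.7 and 41.8 CPM in control replicate 1. The others were highest in control replicate 1. The 8 listed smooth muscle markers summed the other way between the controls, at 986.9 CPM in control replicate 1 and 1484 CPM in control replicate 2. The 10 listed fibroblast and myofibroblast markers summed to 1089 CPM in control replicate 1 and 977.8 CPM in control replicate 2. The part of heart muscle, smooth muscle and fibroblasts in the Lox levels was not tested. By DESeq2's Wald test Lox passed (adjusted p = 0.00365), as did Loxl3 (adjusted p = 0.0183), in a test that called 12.6% of genes higher. In the RefSeq table (GRCr8) Lox overlaps the pseudogene Rps3a-ps12, whose part in its reads was not tested.

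Loxl3 and Loxl4 were the scarcest members. Loxl3, an oxidase with scavenger receptor domains like Loxl2 and Loxl4, had 5.00 and 2.95 FPKM in bleomycin lungs 1 and 2 and 1.77 and 2.18 FPKM in control lungs 1 and 2. Both bleomycin libraries were above both controls, yet the bleomycin pair was 1.67-fold apart and the log2 change of 1.00 ± 0.29 (SE) did not pass (edgeR adjusted p = 0.075). Without bleomycin replicate 2 it passed (edgeR adjusted p = 0.0132). Loxl3 overlaps Htra2 in the RefSeq table (GRCr8), and reads shared by both genes were likewise not assessed; Htra2 had 33.8 and 32.9 CPM in bleomycin lungs 1 and 2 and 29.0 and 27.0 CPM in control lungs 1 and 2, against 15.9 and 9.48 CPM and 5.67 and 6.94 CPM of Loxl3. Loxl4 had 6.34 and 3.87 FPKM in bleomycin lungs 1 and 2, with both controls in between at 4.34 and 5.92 FPKM. Its log2 change was -0.01 ± 0.28 (SE; edgeR adjusted p = 0.978), and the sign turned with the library left out.

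**Figure D2:**
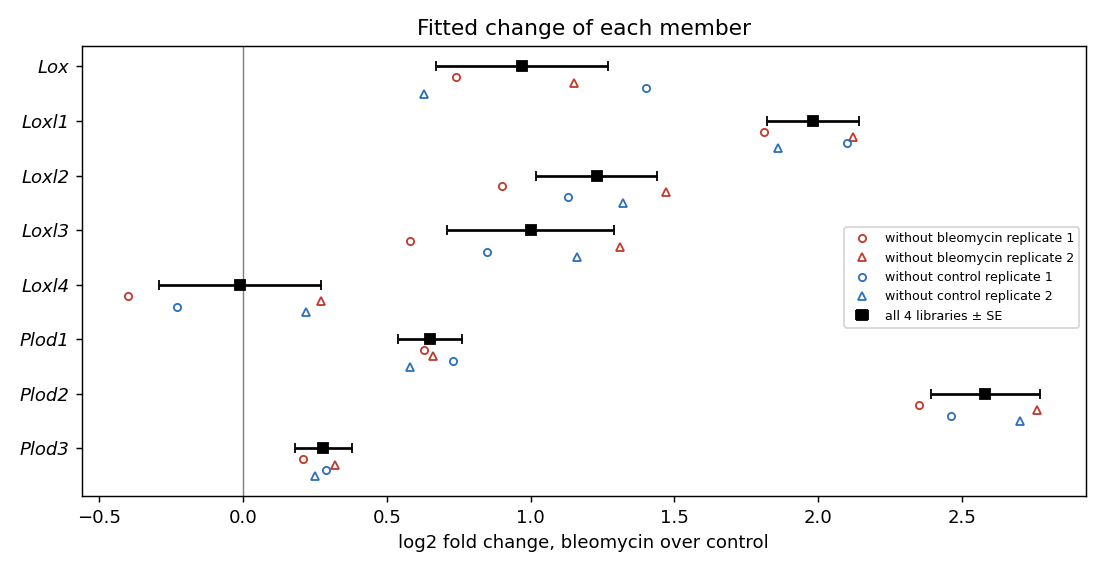
Log2 fold change of each member, bleomycin over control, from edgeR. Black squares with bars are the change ± SE over all 4 libraries and open symbols the change with 1 library left out; Loxl4 alone has points on both sides of 0, and Lox spans 0.63 to 1.40.

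The order of the members by level differed between the groups. In bleomycin lungs it ran from Lox (129.1 ± 28.0 FPKM, SD, n = 2) through Loxl1 (80.4 ± 13.4), Plod2 (54.0 ± 11.6), Plod3 (43.0 ± 3.06), Plod1 (40.1 ± 1.41), Loxl2 (25.7 ± 7.45) and Loxl4 (5.11 ± 1.75) to Loxl3 (3.98 ± 1.45 FPKM). In control lungs it ran from Lox (65.8 ± 24.5 FPKM, SD, n = 2) through Plod3 (35.5 ± 0.672), Plod1 (25.5 ± 1.90), Loxl1 (20.3 ± 2.45), Loxl2 (10.96 ± 0.997), Plod2 (9.01 ± 1.07) and Loxl4 (5.13 ± 1.12) to Loxl3 (1.98 ± 0.29 FPKM). Plod2 was thus the third of the 8 in bleomycin lungs and the sixth in controls. Among bleomycin lungs the ranges of Plod3 and Plod1 overlapped, as did those of Loxl4 and Loxl3, while no neighbours in the control order overlapped.

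The make-up of the lysyl hydroxylase pool differed accordingly. Plod2 made up 41.9% and 36.4% of the summed lysyl hydroxylase FPKM in bleomycin lungs 1 and 2, against 11.6% and 14.2% in control lungs 1 and 2. Plod3 had the reverse pattern, at 30.4% and 32.5% in bleomycin lungs 1 and 2 and 50.6% and 50.8% in control lungs 1 and 2, without having fallen in level. Within the LOX family, Loxl1 made up 32.0% and 34.2% in bleomycin lungs 1 and 2 and 18.1% and 21.4% in control lungs 1 and 2. The Lox share was 53.0% and 52.7% in bleomycin lungs 1 and 2, against 68.4% and 55.8% in control lungs 1 and 2, and that of Loxl4 was 2.25% and 1.86% against 3.57% and 6.82%. The shares of Loxl2 and Loxl3 overlapped between the groups. Shares within a family add up to the whole and so do not move independently, and they were not tested.

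**Figure D3:**
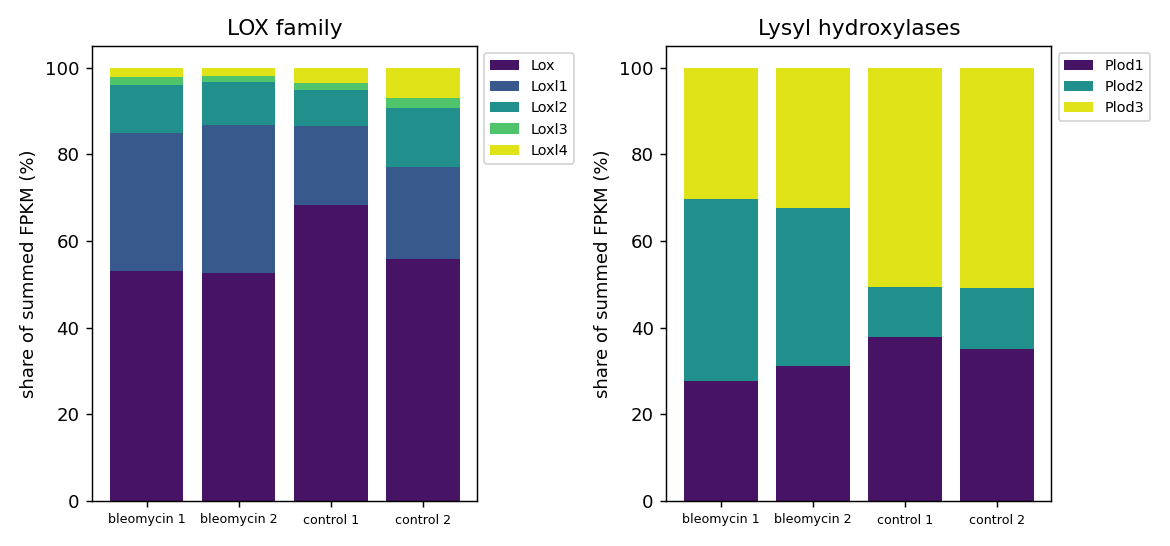
Share of each gene in the summed FPKM of its family, in percent, for each library. Plod2 takes 36.4% to 41.9% of the lysyl hydroxylase sum in bleomycin lungs and 11.6% to 14.2% in control lungs.

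Summed over the family, LOX mRNA was 281.2 and 207.6 FPKM in bleomycin lungs 1 and 2 and 121.5 and 86.8 FPKM in control lungs 1 and 2. Lysyl hydroxylase mRNA summed to 148.5 and 125.9 FPKM in bleomycin lungs 1 and 2 and 71.0 and 68.8 FPKM in control lungs 1 and 2. Type I collagen, a fibrillar substrate of both families, stood at 1311 and 542.8 FPKM for Col1a1 plus Col1a2 in bleomycin lungs 1 and 2, against 132.1 and 138.1 FPKM in control lungs 1 and 2. The means thus differed 2.35-fold for the LOX family and 1.96-fold for the lysyl hydroxylases, and 6.86-fold for type I collagen. Without bleomycin replicate 1 these were 1.99-fold, 1.8-fold and 4.02-fold, and without bleomycin replicate 2 they were 2.70-fold, 2.12-fold and 9.70-fold. LOX mRNA per type I collagen mRNA was 0.215 and 0.382 in bleomycin lungs 1 and 2, against 0.92 and 0.628 in control lungs 1 and 2. Lysyl hydroxylase mRNA per type I collagen mRNA was 0.113 and 0.232 in bleomycin lungs 1 and 2, against 0.537 and 0.498 in control lungs 1 and 2. Neither ratio overlapped between the groups, with log2 differences of -1.41 and -1.67. An exact two-sided permutation test gave p = 0.333 for each, which is the smallest p that 2 against 2 libraries can give. Over all fibrillar collagens of the list in place of type I, the log2 differences were smaller, at -0.64 and -0.91. Col3a1 alone exceeded Col1a1 plus Col1a2 in each library, at 1580 and 902.1 FPKM in bleomycin lungs 1 and 2 and 365.3 and 390.6 FPKM in control lungs 1 and 2. Ratios to Col3a1 alone were not taken, so the lack of overlap is shown for type I collagen only.

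Elastin is also a substrate of the LOX family. Eln, its gene, stood at 638.0 and 890.0 FPKM in bleomycin lungs 1 and 2, against 207.3 and 195.5 FPKM in control lungs 1 and 2, and rose 3.79-fold (edgeR adjusted p = 0.0142, or 0.0948 without control replicate 1 and 0.0943 without control replicate 2). Loxl1 mRNA per elastin mRNA was 0.141 and 0.0797 in bleomycin lungs 1 and 2, with both controls in between at 0.106 and 0.0951. LOX family mRNA per elastin mRNA was 0.441 and 0.233 in bleomycin lungs 1 and 2 and 0.586 and 0.444 in control lungs 1 and 2. These elastin ratios were chosen after their values were seen and were not tested. Eln was higher in bleomycin replicate 2 than in replicate 1, the opposite of all 8 members.

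**Figure D4:**
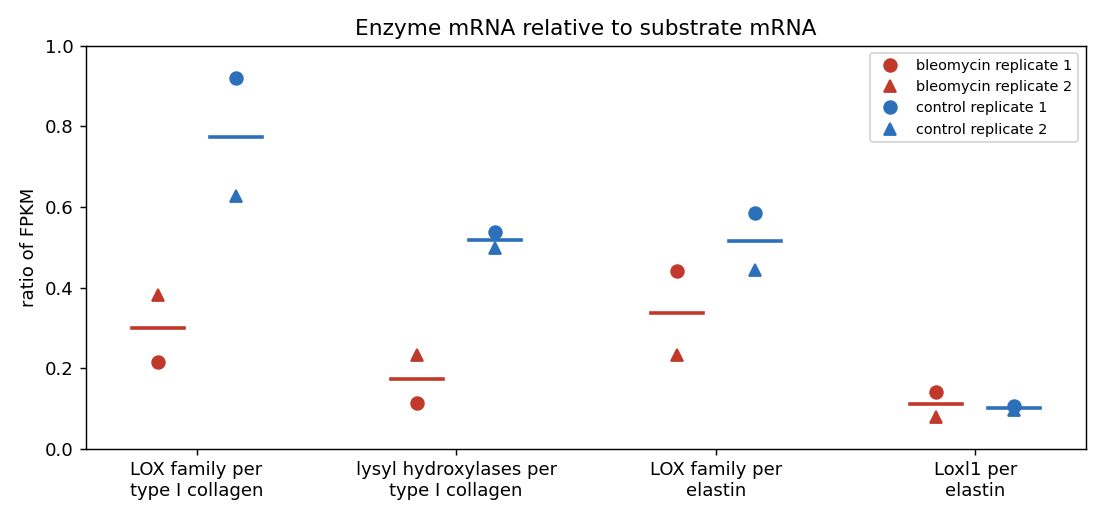
Ratio of enzyme FPKM to substrate FPKM in each library, with bleomycin libraries in red to the left of control libraries in blue and lines at the means. Both type I collagen ratios are lower in the 2 bleomycin libraries than in the 2 controls, while Loxl1 per elastin overlaps at 0.0797 to 0.141 in bleomycin and 0.0951 to 0.106 in control libraries.

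Genes that work with these enzymes were listed in 8 groups, holding 79 genes of which 75 were tested; Col2a1, Tll2 and Tgm3 were too low and Crtap was not matched by symbol. In bleomycin lungs 29 of the 75 were called higher and 3 lower, against 9.27% and 7.44% of all tested genes. The counts of each list below, and of the cell type markers, stand against these same shares. The lists were chosen with earlier results of these data known, so an excess over these shares cannot be told apart from that choice. Of 11 tested fibrillar collagen and elastin substrates 6 rose and 1 fell, with a median log2 change of 1.90. Col1a1, a chain of type I collagen, had 5168 and 1968 CPM in bleomycin lungs 1 and 2 and 431.2 and 389.9 CPM in control lungs 1 and 2, an 8.69-fold rise (12.5-fold without bleomycin replicate 2 and 4.78-fold without bleomycin replicate 1; edgeR adjusted p = 0.0224). Col3a1, the type III collagen chain, rose 3.27-fold (edgeR adjusted p = 0.0258). The chain that fell was Col11a2, a minor fibrillar chain named after its values were seen, at 1.34 and 1.84 CPM in bleomycin lungs 1 and 2 against 4.89 and 6.81 CPM in control lungs 1 and 2. Without control replicate 1, as without control replicate 2, 0 of the listed genes of any of the 8 groups was called.

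Of 10 tested partners of the lysyl hydroxylases, 5 rose and 0 fell, with a median log2 change of 0.75 (P3h1, P3h3 and P4hb also stand in the list of prolyl hydroxylases, and P4ha1 stands in that list and the hypoxia list). Serpinh1, which encodes the collagen chaperone HSP47, rose 1.72-fold (edgeR adjusted p = 0.0287) and Ppib, the cyclophilin of the collagen-folding complex, 1.67-fold (edgeR adjusted p = 0.0312). P3h3 and P3h4, whose products bind the Plod1 enzyme in mouse, were among the 5, at 1.70-fold and 2.12-fold (edgeR adjusted p = 0.0441 and 0.0428). Fkbp10, which encodes a prolyl isomerase needed for Plod2 enzyme activity in human cells, had 131.6 and 65.8 CPM in bleomycin lungs 1 and 2 against 41.2 and 35.1 CPM in control lungs 1 and 2, without overlap, and did not pass (edgeR adjusted p = 0.0525). Colgalt1 and Colgalt2, which encode galactosyltransferases that act on hydroxylysine, had log2 changes of 0.31 ± 0.10 and -0.49 ± 0.29 (SE) and did not pass. P3h3, P3h4, Fkbp10, Colgalt1 and Colgalt2 were named after their values were seen. All 5 calls of this list were lost without control replicate 1 or without control replicate 2.

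Of 7 tested collagen prolyl hydroxylase genes, 3 rose and 1 fell, with a median log2 change of 0.69; without bleomycin replicate 2, 5 rose and 1 fell, and without bleomycin replicate 1 none fell and 4 rose. P4ha3, a catalytic subunit gene, rose 3.95-fold to 35.9 ± 14.9 CPM in bleomycin lungs, against 9.10 ± 2.69 CPM in controls (SD, n = 2; edgeR adjusted p = 0.0292). P4hb, which encodes the shared subunit, rose 1.61-fold (edgeR adjusted p = 0.0427). P3h2, a prolyl 3-hydroxylase gene best known for basement membrane collagen, fell to 25.5 ± 3.16 CPM in bleomycin lungs, against 39.2 ± 3.43 CPM in controls (SD, n = 2; edgeR adjusted p = 0.0422, or 0.0646 without bleomycin replicate 1). With control replicate 1 or control replicate 2 left out, no gene of this list was called.

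Of 12 tested genes of LOX activation and matrix docking, 5 rose and 0 fell, with a median log2 change of 0.59. Fn1, fibronectin, on which LOX can assemble, had 6565 and 3567 CPM in bleomycin lungs 1 and 2, against 851.5 and 870.4 CPM in control lungs 1 and 2, a 5.88-fold rise (edgeR adjusted p = 0.0167). Thbs1, the matrix glycoprotein thrombospondin 1, rose 5.28-fold (edgeR adjusted p = 0.0133). Bmp1, which encodes the protease that cleaves the LOX propeptide, had 173.5 and 151.6 CPM in bleomycin lungs 1 and 2, against 126.9 and 106.8 CPM in control lungs 1 and 2, and did not pass (edgeR adjusted p = 0.0715). Efemp2, which encodes the fibulin that binds LOX for elastic fibre assembly, rose 3.25-fold (edgeR adjusted p = 0.0244). Postn, periostin, had 433.5 and 599.0 CPM in bleomycin lungs 1 and 2, with both controls in between at 494.2 and 503.3 CPM. Bmp1, Efemp2 and Postn were named after their values were seen. No gene of this list was called without control replicate 1 or without control replicate 2.

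Copper handling, which loads the LOX cofactor, was mixed. Of 7 tested genes 2 rose and 0 fell, with a median log2 change of 0.52. Mt2A, a metallothionein gene, rose 5.11-fold (edgeR adjusted p = 0.0102) and the copper importer gene Slc31a1 1.66-fold (edgeR adjusted p = 0.0456, or 0.0578 without bleomycin replicate 1). Atp7a, which encodes the pump that delivers copper to secreted enzymes, had 70.8 and 78.3 CPM in bleomycin lungs 1 and 2 and 88.3 and 78.4 CPM in control lungs 1 and 2 (edgeR adjusted p = 0.358; named after its values were seen). Without bleomycin replicate 1 the list had 1 higher and 1 lower gene, without bleomycin replicate 2 it had 4 and 1, and with either of the controls left out 0 were called. Reads of metallothionein genes may be shared between near-identical copies, which was not tested.

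Of 5 tested genes of other cross-linking enzymes, 1 rose, with a median log2 change of 0.46. Qsox1, a sulfhydryl oxidase gene, rose 1.70-fold (edgeR adjusted p = 0.0186), while Pxdn, which encodes the peroxidase that cross-links type IV collagen, had a log2 change of 0.45 ± 0.15 (SE; edgeR adjusted p = 0.0926) and Tgm2, tissue transglutaminase, of 0.61 ± 0.20 (SE; edgeR adjusted p = 0.0994; named after its values were seen). Without bleomycin replicate 2, 4 genes of this list were called higher, and with either of the controls left out 0.

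Plod2, Lox and Loxl2 are known targets of hypoxia-inducible factors in human cells, and TGF-beta induces several members in fibroblasts. Of 17 hypoxia-responsive genes 2 rose and 1 fell, with a median log2 change of 0.67, and 14 did not pass. Among all tested genes 9.27% were called higher and 7.44% lower. Both bleomycin libraries lay above both controls for 13 of the 17 and below them for 2, against 35.1% and 33.4% of all tested genes. Ldha, the lactate dehydrogenase A chain, rose 1.91-fold (edgeR adjusted p = 0.0357), whereas Vegfa, the vascular growth factor, fell to 165.1 and 244.6 CPM in bleomycin lungs 1 and 2, against 492.4 and 425.8 CPM in control lungs 1 and 2 (edgeR adjusted p = 0.0302). By DESeq2, which called 12.6% of genes higher, 8 genes of the hypoxia list were higher and 2 lower. By edgeR it had 5 higher and 1 lower gene without bleomycin replicate 1, 10 and 2 without bleomycin replicate 2, and 0 called with either of the controls left out. Of 10 TGF-beta ligands and target genes 7 rose and 0 fell, with a median log2 change of 1.07. Smad7, which encodes a feedback inhibitor of TGF-beta signalling, had 79.2 and 121.9 CPM in bleomycin lungs 1 and 2. The control lungs 1 and 2 had 120.5 and 89.6 CPM (edgeR adjusted p = 0.88). Skil and Tgfbi did not pass either (edgeR adjusted p = 0.145 and 0.0538). Smad7, Skil and Tgfbi were named after their values were seen. Ccn2, connective tissue growth factor, rose 2.19-fold (edgeR adjusted p = 0.0177), the latent TGF-beta binding protein gene Ltbp2 2.46-fold (edgeR adjusted p = 0.0135) and Pmepa1, a feedback inhibitor of the pathway, 2.06-fold (edgeR adjusted p = 0.0125). These 7 calls too were lost when either of the controls was left out.

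**Figure D5:**
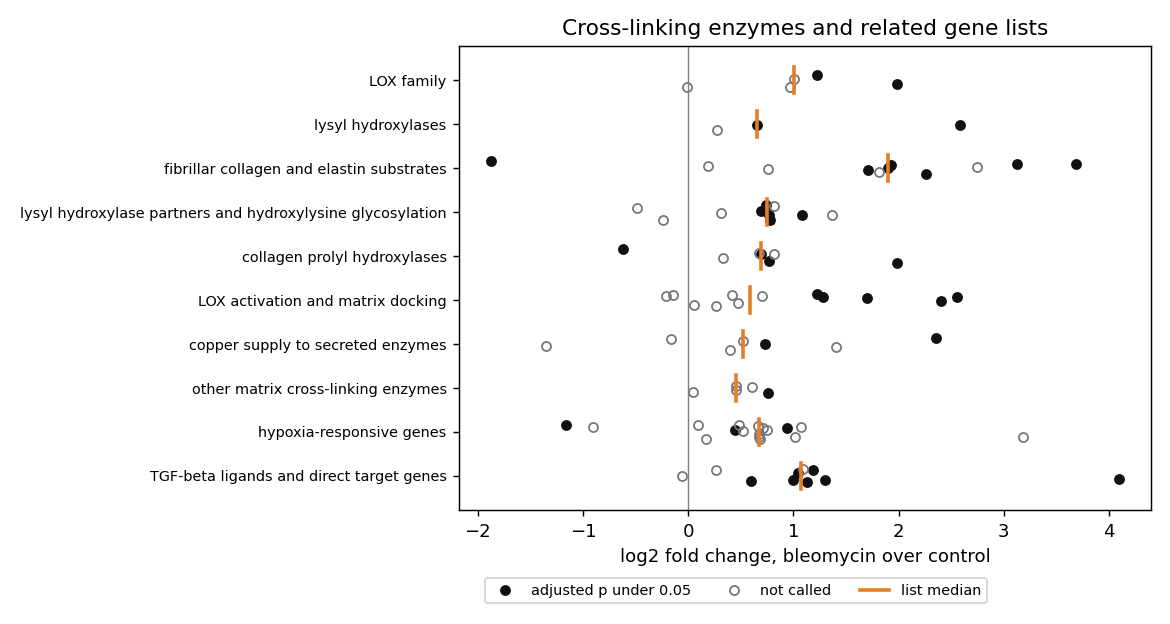
Log2 fold change, bleomycin over control, of each tested gene in the 2 member families and the 8 related lists. Filled points were called by edgeR, open points were not, and orange bars mark list medians, from 0.46 for other matrix cross-linking enzymes to 1.90 for the substrates; vertical scatter has no meaning.

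In whole lung, more cells of a type and more RNA per cell cannot be told apart. Of 10 fibroblast and myofibroblast markers 5 rose and 0 fell, and their summed level was 1403 and 1259 CPM in bleomycin lungs 1 and 2, against 1089 and 977.8 CPM in control lungs 1 and 2. Fap, an activated fibroblast marker, had 385 and 121 counts in bleomycin lungs 1 and 2 and 13 and 18 counts in control lungs 1 and 2, while Pdgfra, a marker of lung fibroblasts at large, overlapped at 197.4 and 159.3 CPM in bleomycin lungs and 235.3 and 147.5 CPM in control lungs. Smooth muscle markers summed to 2505 and 1438 CPM in bleomycin lungs 1 and 2 and 986.9 and 1484 CPM in control lungs 1 and 2, with 1 of 8 called higher. Mesothelial markers summed to 526.7 and 308.8 CPM in bleomycin lungs 1 and 2 and 140.8 and 253.2 CPM in control lungs 1 and 2, with 1 of 5 called higher. Of 8 macrophage markers 4 rose, and the list summed to 3034 and 2841 CPM in bleomycin lungs 1 and 2 and 1308 and 1482 CPM in control lungs 1 and 2. Cd68, Spp1, Msr1 and Gpnmb were called, with Gpnmb at 1292 and 1392 CPM in bleomycin lungs 1 and 2 and 362.0 and 429.3 CPM in control lungs 1 and 2. Csf1r, Marco, Mrc1 and Adgre1 did not pass, with log2 changes of -0.19, -0.08, 0.34 and 0.48. These 8 were named after their values were seen. Endothelial markers, 3 of 7 lower and 1 higher, summed to 1972 and 2575 CPM in bleomycin lungs 1 and 2 and 4949 and 4345 CPM in control lungs 1 and 2. Of 8 tested lung epithelial markers 3 fell and 0 rose, with sums of 18575 and 29546 CPM in bleomycin lungs 1 and 2 and 39408 and 40665 CPM in control lungs 1 and 2. Cartilage markers summed to 4.79 and 2.86 CPM in bleomycin lungs 1 and 2 and 1.51 and 1.10 CPM in control lungs 1 and 2. Most of the bleomycin sum was Comp, cartilage oligomeric matrix protein, with 119 and 70 counts in bleomycin lungs 1 and 2 and 16 and 24 counts in control lungs 1 and 2, a 4.5-fold rise (edgeR adjusted p = 0.0423, or 0.103 without bleomycin replicate 1). Acan had 17 and 11 counts in bleomycin lungs and 0 in both controls, and Matn1 had 2 counts in bleomycin lung 1 and 0 in the other 3 libraries. Comp was the 1 of 3 tested cartilage markers called higher, and of 7 tested heart muscle markers 0 were called in either direction. Fap, Pdgfra, Cldn5, Comp, Acan, Matn1, Myh6, Tnnt2, Actc1 and Sftpc were named after their values were seen. Without bleomycin replicate 1 the higher calls were 3 for fibroblasts, 0 for smooth muscle and 0 for cartilage. Without bleomycin replicate 2 the median log2 changes were 1.06 for fibroblasts, 1.08 for smooth muscle and 1.22 for mesothelium, against 0.88, 0.76 and 1.06 over all 4 libraries. For endothelium and epithelium the medians were then -1.44 and -1.09, against -0.98 and -0.62. The endothelial marker Cldn5 had 0 counts in bleomycin lung 1 and 758 in bleomycin lung 2, against 537 and 347 in control lungs 1 and 2. With either of the controls left out, 0 marker genes were called higher, and 2 heart muscle markers were lower without control replicate 2. The part of these cell types in the changes of the members was not tested.

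The genes whose levels over the 4 libraries were most like the summed LOX family level were Vwa1, Smtnl2, Esco2, Sema3d and Brca1, with root mean square differences of 0.068 to 0.088 log2 units after centring. Those most like the summed lysyl hydroxylase level were Eva1a, Ednra, Sod2, Rcl1 and Glb1l, at 0.023 to 0.037 log2 units. Ednra, the endothelin A receptor gene, had 133.6 and 118.0 CPM in bleomycin lungs 1 and 2 and 63.3 and 63.1 CPM in control lungs 1 and 2. The likeness was taken over only 4 libraries and 12477 genes, and it says nothing of shared function or control.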

How the data were processed

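Lung mRNA of 2 bleomycin and 2 control rats was measured after oligo(dT) selection; the labels' protocols describe no strand-marking step. The submitters' processing notes list build Rnor_6.0 and, in no stated order, fastp 0.18.0, CASAVA 1.8, StringTie 1.3.1, HISAT2 and DESeq2, with roles and settings not given in the sources used here. The authors deposited raw counts per gene, and FPKM that the authors scaled to gene length and to each library's summed counts, as their ratios to the counts show.

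Counts were analysed with edgeR 4.0.16 in R 4.3.3: filterByExpr (minimum count 10, total 15), TMM scaling, and the robust quasi-likelihood test with group as the only term. The SE is the unshrunk log2 change over the square root of F. The fit has 2 residual degrees of freedom, plus a median of 3.23 borrowed across genes. P-values measure the spread between 2 rats a group. All 8 members passed the filter. The script was tested on simulated data. Alternatives used DESeq2 1.42.0, limma 3.58.1 on counts (voom) and on log2(FPKM + 0.1) and log2(FPKM + 1), other scalings, no filter, a replicate block, and leaving out each library. FPKM ratios were compared by an exact permutation test.

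Members and lists were chosen with earlier results of these data known. Named genes are the 8 members and, per list, the 2 smallest p and the called gene with the highest mean CPM; for likeness, they are the 5 genes nearest to each family sum among those whose mean log2 CPM reached 1. Other genes are marked as named after their values were seen, except genes that overlap a member. Replicates differed by far more than sampling noise, with 96.7 times the sampling variance in the bleomycin pair and 22.6 times in the control pair, so none was a copy of another. Promoter sequences are from RefSeq, matched by symbol.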

Additional observations from a re-analysis of the deposited data

How the results depend on the processing

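The 4 calls among the members held under other scalings, without robust estimation, without a filter on low counts, by limma-voom and by limma on log2(FPKM + 0.1) and log2(FPKM + 1), and 0 members were lower under any alternative. With 1 library left out, 0 to 6 members were called higher, 13 to 2569 of all tested genes higher and 8 to 2573 lower, and 0 to 50 of the related pathway genes higher and 0 to 5 lower; the low ends came without a control and the high ends without bleomycin replicate 2. Where 1 control remained, its spread was taken from the bleomycin pair. The log2 change of Loxl4 lay between -0.40 and 0.27 with 1 library left out, the positive values without bleomycin replicate 2 (0.27) and without control replicate 2 (0.22). DESeq2 called 6 members higher, 2066 of all tested genes higher and 1810 lower, and 45 related pathway genes higher and 5 lower, against 29 and 3. Its higher calls were 5 of 7 prolyl hydroxylases, 4 of 7 copper genes with 1 lower, and 3 of 5 other cross-linking enzymes. Why it called more was not tested. Same-numbered libraries did not deviate together (correlation -0.00237 over 15709 genes). With 2 libraries a group this rests on a single independent pair of deviations, so it cannot decide whether the numbers pair the rats. With the number as a replicate block 5 members were called higher, Lox being the addition (edgeR adjusted p = 0.02), with 1225 genes higher and 1025 lower in all. The log2 difference of LOX family mRNA per type I collagen mRNA lay between -1.83 and -0.99 with 1 library left out, and that of the lysyl hydroxylases between -2.19 and -1.16; neither changed sign by CPM (-1.45 and -1.62), and for the LOX family it was -0.67 against elastin, an alternative chosen after seeing the data. The lowest count of any member was 196.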
